A study of Mus musculus with 21 samples.

Results

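The superior olivary complex (SOC), a group of auditory nuclei in the brainstem that compares the signals of both ears, was profiled by miRNA-seq at birth (P0) and after the onset of hearing (P16). The comparison of these time points used 7 of the 21 libraries of the series, 4 from P0 (SOC_P0) and 3 from P16 (SOC_P16), and was defined by these sample labels and not by any measured level. All 7 came from untreated wild-type mice (genotype WT, treatment none), which the study's methods describe as C57Bl6/J animals of both sexes. The SOC region was cut from frozen brains and the tissue of several animals, more at P0 than at P16, was pooled for each sample, so that 1 library stands for a pool and not for 1 animal. Of the 1647 mature miRNAs in the table of raw counts, 670 reached more than 1 CPM (counts scaled to the library's total) in 2 or more replicates of P0 or of P16, and these were tested.

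miRNAs are short RNAs cut from a hairpin precursor, whose 5p and 3p arms can both give a mature product. Loaded into an Argonaute protein, a miRNA pairs through its seed, bases 2 to 8 from its 5′ end, with mRNAs and lowers their output, so that miRNAs with the same seed share most predicted targets. In the brainstem, the weeks between birth and hearing are a time when progenitors stop dividing, oligodendrocytes mature and wrap axons in myelin, and synapses are refined by activity. miR-219 and miR-338 are known to promote oligodendrocyte maturation, miR-132 and miR-212 are induced by neuronal activity, miR-124 and miR-9 mark neurons, and the miR-17-92 cluster is known for its role in proliferating cells.

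The SOC libraries held 8309669 to 17741834 counts each, and the 10 most abundant miRNAs took 67.0% to 78.4% of them. By the shares of a pair of miRNAs, 3 sets of libraries could be told apart, which neither the labels nor the methods name and which do not follow the time points. Set A (P0 replicates 2 and 3) had 17.2% to 19.6% of its counts on miR-99b-5p, set C (P0 replicate 4 and P16 replicates 2 and 3) had 0.278% to 0.322% on miR-191-5p, and set B (P0 replicate 1 and P16 replicate 1) had neither. The levels of 395 of the 670 tested miRNAs differed between set C and set B at an FDR under 0.05, and those of 79 between set B and set A. Each test was therefore adjusted for the set. Set A holds no P16 library, so that a fitted change rests on sets B and C and can differ from the ratio of the plain means. miR-191-5p and miR-99b-5p, which define the sets, were given no test. Counts do not rank different miRNAs by their abundance in the tissue, as let-7a-5p had 6 to 32 counts per library and miR-29a-3p 0 to 13, and "abundant" below refers to the counts alone. At P0 and P16 alike, the libraries carried the miRNAs of neurons, with 3806 to 23379 CPM of miR-124-3p at P0 and 4491 to 17671 at P16. In tissue of many cell types, a change in the share of a cell type and a change in the RNA of each cell cannot be told apart.

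The mature sequences of the miRNAs on which the results below turn are given 5′ to 3′ from RefSeq (GRCm38.p6, the assembly that the labels call mm10), with the seed in capitals. The first group rose from P0 to P16. The arms of miR-338 (chr11:120014765-120014862, minus strand, in an intron of Aatk) and of miR-330 (chr7:19181465-19181562, plus strand, within Eml2) are shown because both arms of each hairpin rose. miR-219b-5p (chr2:29845647-29845668, plus strand) is shown because it lies opposite the miR-219a-2 hairpin.
miR-338-5p: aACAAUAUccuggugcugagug
miR-338-3p: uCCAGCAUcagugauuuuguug
miR-330-5p: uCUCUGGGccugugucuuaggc
miR-330-3p: gCAAAGCAcagggccugcagaga
miR-219b-5p: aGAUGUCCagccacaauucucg

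miR-132-3p (chr11:75173723-75173744, plus strand) and miR-212-3p (chr11:75173443-75173464, plus strand) are neighbours with the same seed and rose together. miR-34a-5p (chr4:150068473-150068494, plus strand) and miR-449a-5p (chr13:113037549-113037570, plus strand, in an intron of Cdc20b) also share a seed but changed in opposite directions.
miR-132-3p: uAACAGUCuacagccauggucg
miR-212-3p: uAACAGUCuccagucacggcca
miR-34a-5p: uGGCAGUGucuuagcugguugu
miR-449a-5p: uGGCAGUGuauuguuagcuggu

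The next group was lower at P16. miR-10a-5p (chr11:96317186-96317208, plus strand) and miR-10b-5p (chr2:74726074-74726096, plus strand, in an intron of Hoxd3 and Hoxd4) have the same seed and lie beside different Hox clusters. miR-183-5p, miR-96-5p and miR-182-5p come from 1 cluster on chromosome 6 (minus strand, hairpins between 30165918 and 30169737). miR-335-5p comes from an intron of Mest (chr6:30741314-30741336, plus strand) and miR-135a-1-3p from an intron of D030055H07Rik opposite Glyctk (chr9:106154179-106154200, plus strand).
miR-10a-5p: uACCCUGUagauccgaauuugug
miR-10b-5p: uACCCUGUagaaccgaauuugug
miR-183-5p: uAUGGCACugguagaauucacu
miR-96-5p: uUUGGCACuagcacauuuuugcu
miR-182-5p: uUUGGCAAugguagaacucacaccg
miR-335-5p: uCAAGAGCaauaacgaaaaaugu
miR-135a-1-3p: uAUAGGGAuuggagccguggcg

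From P0 to P16, most tested miRNAs of the oligodendrocyte hairpins and all of the activity-regulated ones rose in the SOC, and most of those beside the Hox clusters fell. Differential expression (DE) was called where edgeR's quasi-likelihood test, adjusted for the library set, had an FDR under 0.05 (Benjamini-Hochberg over the 670), where the fold change exceeded 1.5 and where every P16 library lay above, or every one below, every P0 library in TMM-normalized CPM. Levels did not overlap in this way for 195 of the 670 (29.1%). In total, 161 miRNAs were DE (24.0% of those tested), 96 of them higher at P16 (14.3%) and 65 lower (9.70%). With at least 100 CPM in the higher time point, 40 were higher and 16 lower. A further 159 met the FDR and the fold change and kept their direction within sets B and C, but their time points overlapped when the sets were pooled (66 higher and 93 lower). With them, 320 miRNAs (47.8%) differed in 1 direction within each set, 162 higher (24.2%) and 158 lower (23.6%). The median log2 fold change of all 670 was -0.01, with an interquartile range from -0.91 to 0.95. Without the set in the model 66 miRNAs were DE, all of them among the 161.

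**Figure D1:**
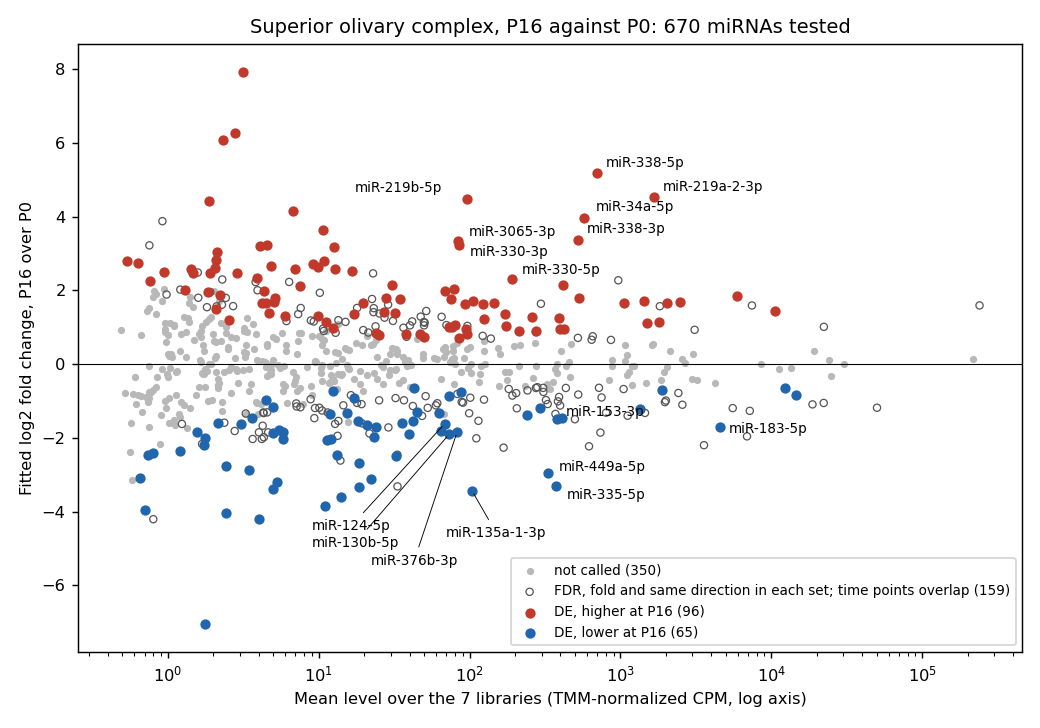
Fitted log2 fold change of P16 over P0 (vertical axis) against the mean level over the 7 libraries (TMM-normalized CPM, log axis) for the 670 miRNAs tested. Filled red and blue points are the 96 and 65 DE miRNAs, open points the 159 that kept their direction within sets B and C but overlapped between time points, and the 16 labelled miRNAs are the 8 largest increases and decreases with at least 100 CPM.

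Because sets B and C hold separate libraries, each gives its own estimate of the change. In set B the ratio compares P16 replicate 1 with P0 replicate 1, and in set C the mean of P16 replicates 2 and 3 with P0 replicate 4. Over the 670 miRNAs the log2 ratios of the 2 sets had a Pearson correlation of 0.81 and a Spearman correlation of 0.80, a description across miRNAs, which are not independent replicates. Both ratios had the same sign for 536 miRNAs (80.0%), and for 133 of the 160 with a mean of at least 100 CPM (83.1%). The normalization factors are shared by all miRNAs of a library.

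**Figure D2:**
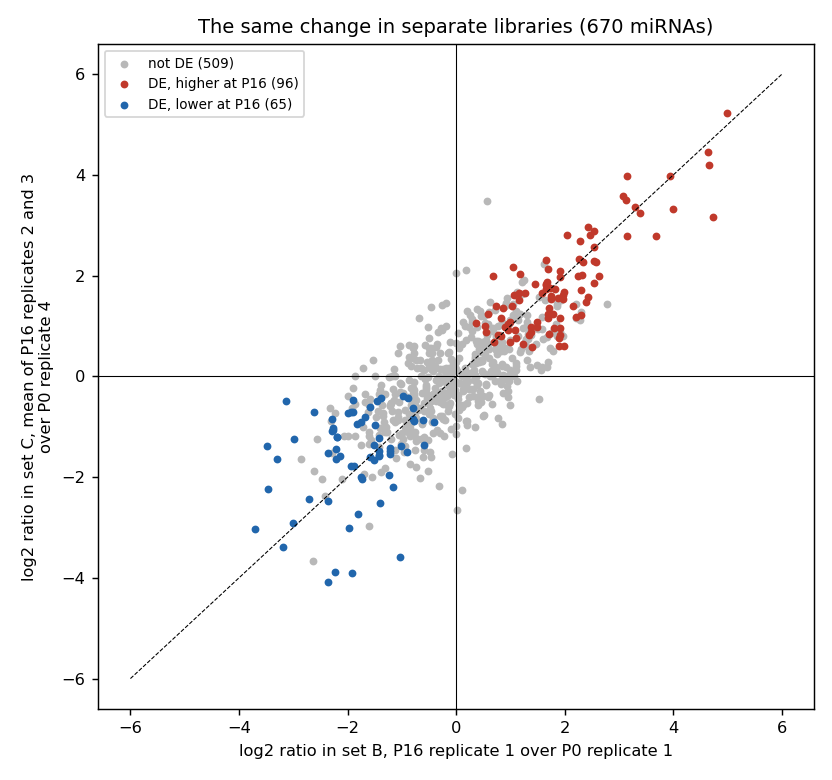
Log2 ratio of P16 over P0 in set B (horizontal axis, 1 library against 1) and in set C (vertical axis, mean of 2 libraries over 1) for the 670 miRNAs, with 0.5 CPM added to each level and the dashed line at equal ratios. The 96 miRNAs called higher and the 65 called lower lie at the upper right and at the lower left, as the criterion on overlap requires.

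Of the oligodendrocyte miRNAs, 5 of 6 tested members of the miR-219 and miR-338 hairpins rose and 1 fell, with a median log2 fold change of 4.32. All 6 were DE (100%, against 24.0% of all tested miRNAs). miR-219a-5p was not among the 8 members counted, so that miR-219a is read here from its 3p arms alone. miR-338-5p, from the hairpin that increases in maturing oligodendrocytes, was at 44.8, 26.6, 59.5 and 40.6 CPM in the 4 P0 libraries and at 1445, 1084 and 2191 CPM in the 3 P16 libraries. The lowest P16 library stood far above the highest P0 library. From a mean of 42.9 ± 13.5 CPM (SD, n = 4) at P0 it rose to 1573 ± 564 CPM at P16 (n = 3). The log2 fold change was 5.19 with a standard error of 0.43 (FDR 1.43e-06), the largest of the DE miRNAs with at least 100 CPM. miR-338-3p, the other arm, rose from 235, 175, 135 and 43.9 CPM to 2065, 426 and 594 CPM, a log2 fold change of 3.36 (FDR 8.89e-07). P0 replicate 4 and the P16 libraries of the same set C had the lowest levels of this arm at their time points.

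miR-219a-2-3p was at 245, 279, 283 and 105 CPM at P0 and at 6104, 2292 and 2359 CPM at P16, which gives a log2 fold change of 4.54 with a standard error of 0.23 (FDR 3.83e-08). This was the smallest FDR of the comparison. miR-219b-5p, counted from the opposite strand of this locus, rose from 11.7, 15.4, 9.52 and 8.08 CPM to 308, 147 and 169 CPM, and miR-219c-3p from 1.65, 3.70, 1.00 and 0.20 to 18.6, 7.73 and 14.4 (log2 fold changes 4.48 and 4.16). The counts of miR-219b-5p were 3.37% to 7.69% of those of miR-219a-2-3p at P0 and 5.05% to 7.17% at P16. miR-3065-3p, from the strand opposite miR-338, rose from 17.5, 10.2, 9.94 and 17.8 to 187, 164 and 182 CPM (log2 fold change 3.34), and its counts were 16.7% to 43.7% of those of miR-338-5p at P0 and 8.29% to 15.2% at P16. Whether the counting used the strand is not given in the sources used here, so the products of opposite strands are uncertain. The one member that fell, miR-219a-1-3p, comes from the other miR-219a locus and decreased from 18.2 ± 2.41 CPM (SD, n = 4) to 3.97 ± 0.528 CPM (n = 3) (log2 fold change -2.02, FDR 1.45e-04).

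miR-34a-5p and miR-449a-5p, whose seeds are identical, changed in opposite directions. miR-34a-5p, a miRNA induced by p53 and found in neurons, was at 109, 270.2, 310.0 and 51.4 CPM at P0 and at 1671, 762 and 870.0 CPM at P16. All P16 libraries exceeded all P0 libraries, and the log2 fold change was 3.97 with a standard error of 0.24 (FDR 1.13e-07). miR-449a-5p, known from ciliated cells, fell from 305, 306, 206 and 1153 CPM to 37.4, 141 and 166 CPM, with a log2 fold change of -2.96 and a standard error of 0.23 (FDR 7.70e-07). P0 replicate 4 was far above the other P0 libraries, and the 2 P16 libraries of its set were the higher ones at P16. The sum of the 2 miRNAs was 414 to 1205 CPM at P0 and 903 to 1708 CPM at P16, so that the time points overlapped. Within the sets the sum had no common direction. It rose from 414 to 1708 CPM in set B and fell from 1205 to 903 and 1036 CPM in set C. Of the other 4 tested members of these families none was DE, although 1 of them was higher without P0 replicate 2 or P0 replicate 3, and miR-34c-5p was at 4.55, 1.20, 1.42 and 12.5 CPM at P0 and 1.69, 3.58 and 6.94 CPM at P16.

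All 4 mature miRNAs of the activity-regulated miR-132 and miR-212 hairpins rose (100%, against 14.3% of all tested miRNAs), with a median log2 fold change of 1.68. miR-132-3p was at 393, 371, 450.1 and 751 CPM at P0 and at 1933, 1797 and 1699 CPM at P16, a log2 fold change of 1.67 with a standard error of 0.26 (FDR 2.05e-04). Even P0 replicate 4, the highest of its time point, lay below each P16 library, and without it the log2 fold change was 2.28. miR-212-3p rose from 28.4 ± 4.54 CPM (SD, n = 4) to 123 ± 29.5 (n = 3), miR-212-5p from 53.4 ± 14.4 to 173 ± 43.0, and miR-132-5p from 8.52 ± 1.78 to 17.6 ± 2.49 CPM. The counts of miR-212-3p stayed between 4.29% and 8.01% of those of miR-132-3p in all 7 libraries, with overlapping ranges at P0 and P16. Together the 2 miRNAs of the shared seed were at 393 to 783 CPM at P0 and 1795 to 2088 CPM at P16.

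Both arms of miR-330 rose. miR-330-3p was at 23.2, 38.2, 46.7 and 11.8 CPM at P0 and at 304, 87.4 and 80.2 CPM at P16, and miR-330-5p at 108, 77.5, 88.1 and 49.2 and 548, 241 and 235 CPM. The P16 library of set B was higher than those of set C for both arms, and all P16 libraries were above all P0 libraries. The log2 fold changes were 3.22 (FDR 2.67e-06) and 2.31 (FDR 5.84e-06). Without the set in the model, the log2 fold change of miR-330-3p was 2.39 with an FDR of 0.0566.

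**Figure D3:**
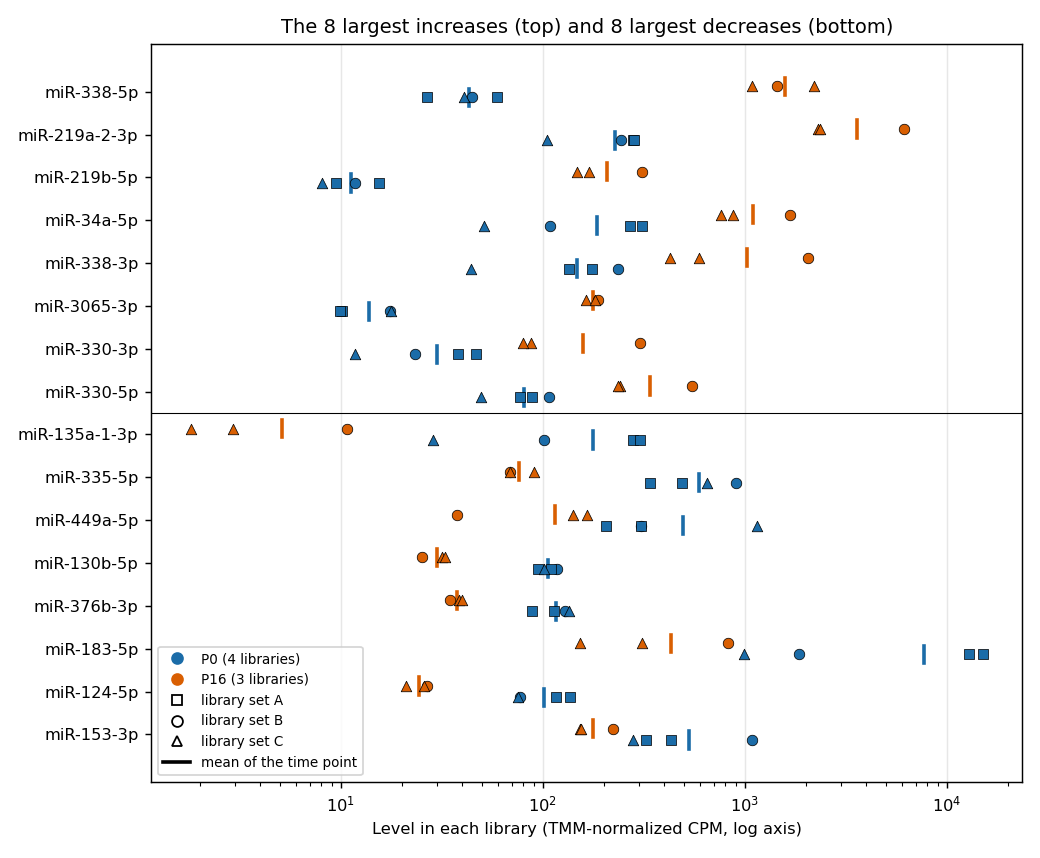
Level of the 8 largest increases (top) and the 8 largest decreases (bottom) among DE miRNAs with at least 100 CPM, in each of the 7 libraries (TMM-normalized CPM, log axis). Blue points are P0 and orange points P16, squares, circles and triangles are library sets A, B and C, and vertical bars are the means; no P16 point overlaps the P0 points of its miRNA.

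No miRNA of neuronal identity was called higher. Of the 4 arms of miR-124 and miR-9, 1 was DE and lower (25%, against 24.0% of all tested), and the median log2 fold change was -1.34. miR-124-3p, the abundant arm, had a log2 fold change of -0.14 (FDR 0.61), while the minor arm miR-124-5p fell from 77.2, 116, 136 and 75.1 CPM to 26.6, 20.9 and 25.9 CPM, a log2 fold change of -1.62 (FDR 8.64e-05). miR-9-5p, a miRNA of neural progenitors and neurons, was at 88409.9, 107429, 83799 and 18331 CPM at P0 and at 36353, 8118 and 8915 CPM at P16. P0 replicate 4 lay below P16 replicate 1, so the time points overlapped, although the level was lower at P16 within each set (log2 fold change -1.18, FDR 5.40e-04). Without P0 replicate 4 or without P16 replicate 1, 3 of the 4 arms were DE and lower. Among 14 other brain-enriched miRNAs (from miR-128, miR-129, miR-137, miR-138, miR-153 and miR-218), 2 rose and 2 fell (28.6%, near the 24.0% of all tested miRNAs), or 4 fell without P16 replicate 1. The 2 that rose came from miR-138, a regulator of dendritic spines, with miR-138-5p at 4025, 2781, 3114 and 8847 CPM at P0 and 13314, 20229.9 and 21301 CPM at P16 (log2 fold change 1.44, FDR 1.47e-04) and miR-138-1-3p rising from 2.11 ± 0.735 CPM (SD, n = 4) to 22.2 ± 3.76 (n = 3). The 2 that fell were the arms of miR-153, which lies in an intron of the neuroendocrine gene Ptprn2. miR-153-3p decreased from 1084, 433, 325 and 278 to 222, 152 and 155 CPM (log2 fold change -1.49, or -0.91 without P0 replicate 1, -0.85 without P16 replicate 1 and -2.31 without P0 replicate 4) and miR-153-5p from 35.2 ± 12.6 to 7.02 ± 5.43 CPM (log2 fold change -1.97).

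The miRNAs of the Hox clusters, which reflect the position of cells along the body axis, had the lowest median of the lists. Of 5 tested members, 4 fell (80%, against 9.70% of all tested miRNAs), with a median log2 fold change of -3.33. miR-10a-5p was at 9.15, 18.2, 20.5 and 25.3 CPM at P0 and at 1.39, 1.12 and 0.951 CPM at P16, and miR-10b-5p at 9.25, 24.3, 33.4 and 26.5 and 1.59, 1.57 and 1.14 CPM. The log2 fold changes were -3.86 (FDR 1.73e-05) and -3.61 (FDR 2.14e-05), and those of the 3p arms, which also fell, were -3.33 and -3.19. That of miR-10a-5p was -4.66 without P0 replicate 1, -4.6 without P16 replicate 1 and -2.73 without P0 replicate 4. The sum of miR-10a-5p and miR-10b-5p decreased from 18.4 to 54.0 CPM at P0 to 2.09 to 2.98 CPM at P16. miR-615-3p, from the Hoxc cluster, was at 23.2, 22.9, 27.8 and 10.3 CPM at P0 and 23.5, 1.68 and 0.856 CPM at P16, without a common direction within the sets.

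The miR-183 cluster, known from sensory hair cells, was lower at P16 within sets B and C in every tested member. miR-183-5p was at 1848, 15074, 12832 and 989 CPM at P0 and at 826, 152 and 309 CPM at P16, and the P0 libraries of set A were several times above the other P0 libraries. The means fell from 7686 ± 7303 to 429 ± 353 CPM, whereas the fitted log2 fold change, which rests on the other sets, was -1.71 with a standard error of 0.29 (FDR 4.20e-04). Without P0 replicate 4 it was -1.18 with an FDR of 0.0535. miR-96-5p fell from 26.8, 57.3, 37.2 and 4.39 CPM to 2.28, 0.56 and 1.81 CPM, a log2 fold change of -2.69 (FDR 6.93e-04). It was -1.89 without P0 replicate 1 and -1.84 without P16 replicate 1, and -3.56 and -3.38 without P0 replicate 4 and P16 replicate 3. miR-182-5p had a log2 fold change of -1.96 (FDR 4.53e-04) and was lower within each set, but its P0 replicate 4, at 2775 CPM, lay below P16 replicate 1, at 2864 CPM, and it was not DE. In all, 2 of the 4 tested members were DE (50%, against 24.0% of all tested miRNAs), or 4 of 4 without P16 replicate 1. The median log2 fold change was -1.89.

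miR-335-5p and miR-135a-1-3p showed the largest decreases among DE miRNAs of at least 100 CPM. miR-335-5p, which is processed from the imprinted gene Mest, was at 902, 488, 339.8 and 648 CPM at P0 and at 69.0, 69.1 and 90.9 CPM at P16 (log2 fold change -3.32, standard error 0.25, FDR 7.70e-07). Its other arm, miR-335-3p, was at 965, 1924, 1934 and 23.5 CPM at P0 and 297, 4.93 and 6.75 CPM at P16. That arm was lower within each set (log2 fold change -1.86, FDR 2.75e-05). It was not DE, as P0 replicate 4 lay below P16 replicate 1. miR-135a-1-3p was at 101, 279, 301 and 28.7 CPM at P0 and at 10.7, 2.91 and 1.81 CPM at P16 (log2 fold change -3.44, standard error 0.25, FDR 6.88e-07). Within each time point its level was lowest in set C, and within both sets P16 was lower. The 5p arm, miR-135a-5p, which the miR-135a-2 hairpin also gives, had 2 to 78 counts in the P0 libraries and 0 in each P16 library. miR-130b-5p, of the miR-130 and miR-301 family, fell from 118, 109, 94.1 and 101 to 25.1, 31.7 and 32.7 CPM (log2 fold change -1.90), and its libraries stayed close together at both time points.

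Of 20 tested miRNAs of the proliferation-linked miR-17-92 cluster and its paralogs, 6 fell (30%, against 9.70% of all tested miRNAs) and none rose. The median log2 fold change was -1.43, and 11 were lower within each set, as were 23.6% of all tested miRNAs. miR-19a-5p, which was not DE, had at most 2 counts in a P16 library and was at least 4.42-fold lower (floor of 3 counts per library), a bound that leaves the median as it is. miR-20a-5p, the most abundant that fell, was at 468, 532, 393 and 244 CPM at P0 and at 146, 133 and 148 CPM at P16 (log2 fold change -1.19, FDR 0.00192). Without the set in the model the log2 fold change was -1.53 with an FDR of 0.0559. miR-18a-5p fell from 50.3 ± 19.0 CPM (SD, n = 4) to 9.22 ± 5.30 (n = 3) and miR-18b-5p, with the same seed, from 6.80 ± 3.75 to 0.246 ± 0.181 CPM (log2 fold changes -2.48 and -4.19). miR-25-3p, from within the replication factor gene Mcm7, was lower at P16 within each set, with a log2 fold change of -1.27. Its time points overlapped, with P0 replicate 4 at 21192 CPM against 3590 to 4687 CPM in the other P0 libraries. The miR-322 cluster, which restrains the cell cycle in differentiating cells, had 4 of 10 members lower (2 without P0 replicate 1) and none higher. The 4 were 40%, against 9.70% of all tested miRNAs, and the median of the list was -0.89. They were miR-450b-5p, miR-542-3p, miR-450a-5p and miR-503-5p, the last of which decreased from 8.34 ± 2.42 CPM (SD, n = 4) to 2.34 ± 1.11 (n = 3).

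The let-7 family, which increases as cells differentiate, had a median log2 fold change of 0.62 over 18 tested members, of which 3 rose (16.7%, near the 14.3% of all tested miRNAs) and none fell (1 without P0 replicate 4). let-7d-5p was at 923, 770.5, 895 and 1548 CPM at P0 and at 2402, 2962 and 3113 CPM at P16 (log2 fold change 1.14, FDR 6.93e-04), and let-7b-3p and let-7g-5p had log2 fold changes of 1.37 and 0.79. let-7b-5p was higher at P16 within each set (1.26), but P0 replicate 4, at 35.7 CPM, lay above P16 replicate 1, at 18.3 CPM. The 9 tested let-7 and miR-98 members of seed GAGGUAG summed to 855 to 1733 CPM at P0 and 2553 to 3458 CPM at P16. Most of this sum was let-7d-5p in every library, so it is not a level of the family. Of the 9, 2 were DE. Of the miR-29 family, 3 members were tested and 1 rose (33.3%, against 14.3% of all tested miRNAs), or 2 without P16 replicate 3. The 1 was miR-29b-3p, from 8.50, 3.20, 4.01 and 2.10 CPM to 36.7, 17.4 and 17.9 CPM (log2 fold change 2.57, FDR 8.72e-05). Of 9 miR-15, miR-16, miR-195 and miR-497 members, 2 rose (22.2%, against 14.3% of all tested miRNAs). Only 1 did without any single library other than P16 replicate 1. The 2 were miR-497a-5p and miR-195a-3p. miR-497a-5p rose from 138, 93.5, 87.8 and 385 CPM to 388, 749 and 898 CPM, with P0 replicate 4 just below P16 replicate 1. miR-195a-3p rose from 2.34 ± 0.60 to 7.28 ± 1.09 CPM, a call lost without P0 replicate 4.

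The imprinted Dlk1-Dio3 region, whose miRNAs are expressed from the maternal chromosome, had DE members of both directions. Of 61 tested members of its miR-379-410 cluster, 8 rose and 11 fell (31.1%, against 24.0% of all tested miRNAs), with a median log2 fold change of -0.05. Without P0 replicate 1 the numbers were 5 and 5, and without P16 replicate 1 the 11 became 6. miR-376b-3p fell from 129, 113, 88.2 and 135 CPM to 34.6, 38.5 and 39.7 CPM (log2 fold change -1.84) and miR-376c-3p from 63.1, 40.6, 36.2 and 7.18 to 5.26, 0.896 and 1.43 CPM (log2 fold change -3.12, FDR 2.02e-05). miR-541-5p, the most abundant that fell, went from 17666 ± 3005 to 10620.0 ± 1826 CPM. miR-666-5p rose from 1180.1, 1729, 2090.3 and 1128 CPM to 3698, 4254 and 3285 CPM and miR-666-3p from 223, 117, 152 and 299 to 715, 1169 and 1042 CPM (log2 fold changes 1.70 and 1.80). miR-381-3p, at 10317, 6447, 5236 and 883 CPM at P0 and 1681, 257 and 226 CPM at P16, was lower within each set (-2.20, FDR 1.34e-05), but P0 replicate 4 lay below P16 replicate 1. Of 12 miRNAs antisense to Rtl1, 1 rose, miR-433-3p, from 1145, 1495, 2058 and 792 CPM to 3846, 2642 and 2169.7 CPM, and of 10 on the Meg3 side 1 rose, miR-770-5p, from 22.1, 11.1, 15.8 and 49.3 CPM to 70.6, 181 and 174 CPM. The shares were 8.33% and 10%, against 14.3% of all tested miRNAs. Both counts became 2 without P16 replicate 3, and that of the miRNAs antisense to Rtl1 also without P16 replicate 1. Of the latter, 1 was lower without P0 replicate 1, P0 replicate 4 or P16 replicate 1.

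**Figure D4:**
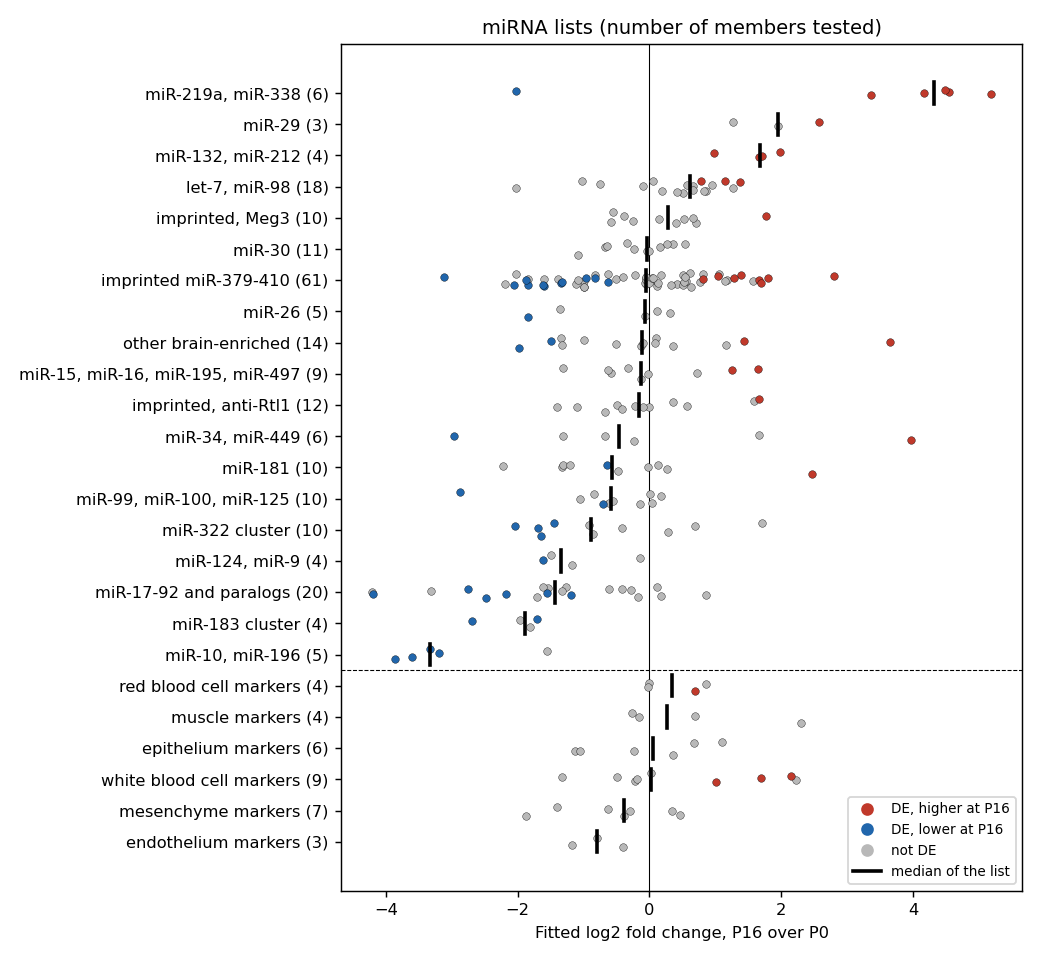
Fitted log2 fold change of P16 over P0 for each tested member of 25 miRNA lists, with the number of tested members in parentheses, red and blue points for DE miRNAs and a bar at the list's median. The miR-219 and miR-338 list has a median of 4.32 and the miR-10 list one of -3.33, while the 61 miRNAs of the imprinted miR-379-410 cluster spread from -3.12 to 2.79 around -0.05; the 6 lists under the dashed line are markers of other cell types.

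In 3 of the other families 20% of the members were DE, near the 24.0% of all tested miRNAs. Of 10 members of the miR-99, miR-100 and miR-125 families, 2 fell, miR-125b-1-3p and miR-99a-5p (log2 fold changes -0.70 and -2.87). The second was lost without P0 replicate 1 (-1.90, FDR 0.0563) and without P16 replicate 1 (-1.85, FDR 0.0531), and without P0 replicate 4, which left 1 of the 2 calls, it was -4.61. Of 10 miR-181 miRNAs, miR-181c-5p fell from 14412 ± 3045 to 9380.2 ± 105 CPM (log2 fold change -0.65), a call lost without P16 replicate 1. miR-181b-1-3p rose from 0.20, 0.30, 0.167 and 1.80 CPM to 1.98, 4.59 and 10.9 CPM, a log2 fold change of 2.47 that was 3.23 without P0 replicate 4 and not called without P0 replicate 1 or P16 replicate 2. Of 5 miR-26 miRNAs, miR-26a-1-3p fell (-1.84), a call lost without P0 replicate 1, P0 replicate 4 or P16 replicate 1. None of 11 miR-30 miRNAs was DE, although 1 was lower without P0 replicate 3 or P0 replicate 4, and their median was -0.04. The abundant miR-30b-5p was at 1800.2, 1033, 884 and 1109 CPM at P0 and 1045, 704 and 768 CPM at P16 (-0.68, FDR 0.0127).

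The 5 most abundant miRNAs, other than the 2 that define the sets, were not DE. miR-127-3p, from the imprinted region, was at 113515, 230191, 292295 and 100757 CPM at P0 and 411791, 295975 and 236041 CPM at P16. It was higher at P16 within sets B and C, with a log2 fold change of 1.59 (FDR 1.47e-04), but the P0 library with the highest level, replicate 3, exceeded P16 replicate 3. miR-181a-5p, miR-410-3p and miR-16-5p had log2 fold changes of 0.14, 0.00 and -0.33 (FDR 0.655, 0.999 and 0.255). miR-9-5p, given above, completes the 5.

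Markers of other cell types were read beside these changes. The white blood cell and microglia list had 3 of 9 tested members higher (33.3%, against 14.3% of all tested miRNAs). miR-150-5p, abundant in mature lymphocytes, rose from 145, 209.5, 157 and 189 CPM to 842, 688 and 687 CPM (log2 fold change 2.15, FDR 2.16e-05), and miR-150-3p and miR-21a-3p had log2 fold changes of 1.70 and 1.02. miR-142a-3p, which defines blood lineages, was at 6.78 ± 2.91 CPM at P0 and 6.74 ± 0.542 CPM at P16 (FDR 0.664), and miR-223-3p, a myeloid miRNA, had a log2 fold change of -1.33 and was lower within each set. The list summed to 1485 to 2116 CPM at P0 and 1774 to 3012 CPM at P16. Its largest member by mean level was miR-21a-5p, at 1255 to 1836 and 758 to 2157 CPM, which was not DE. miR-21a is in the list but not among the markers set for these cells, miR-142a, miR-223 and miR-150. Of those markers only the miR-150 arms were DE, so the share and the sum do not measure these cells alone. Without P0 replicate 3, 1 member was lower. Of 4 red blood cell miRNAs 1 rose (25%, against 14.3% of all tested miRNAs). It was miR-451a, from 56.0, 42.2, 27.9 and 89.2 CPM to 91.0, 136 and 153 CPM (log2 fold change 0.70, FDR 0.0279). Its call was lost without any single library other than P0 replicate 2. The list summed to 42.6 to 129 CPM at P0 and 121 to 205 CPM at P16.

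Endothelial (3 tested), mesenchymal (7), epithelial (6 of 13) and muscle (4 of 14) miRNAs had no DE member, against 24.0% of all tested miRNAs. With so few members, the absence of a call says little about these cell types. At an FDR under 0.05 and a fold change above 1.5, some kept their direction within each set. Of these, 2 mesenchymal (miR-214-5p and miR-214-3p) and 1 epithelial miRNA (miR-203-3p) were lower, and 1 muscle miRNA (miR-499-5p) was higher. By the same criteria 23.6% of all tested miRNAs were lower and 24.2% higher. Further, 1 epithelial miRNA was DE without P0 replicate 4 or P16 replicate 1, and 1 muscle miRNA without P0 replicate 3 or P16 replicate 2. The summed levels of the 4 lists, endothelial (3 tested), mesenchymal (7), epithelial (6) and muscle (4), overlapped between the time points. The endothelial sum was 887 to 6427 CPM at P0 and 1086 to 6122 CPM at P16, the mesenchymal sum 15028 to 21416 and 19804 to 25326 CPM, the epithelial sum 57.3 to 216 and 56.7 to 165 CPM, and the muscle sum 9.48 to 30.0 and 11.3 to 35.2 CPM. Nearly all of the endothelial sum was miR-126a-3p (886 to 6419 and 1084 to 6116 CPM). Nearly all of the mesenchymal sum was miR-143-3p (14684 to 21133 and 19660 to 25153 CPM). These 2 sums therefore do not describe the other members. miR-133a-3p, a defining muscle miRNA, had at most 2 counts in any of the 7 libraries. The part of these cell types in the changes above was not tested.

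The arms of a hairpin are different sequences cut from 1 precursor. Both arms were tested for 195 hairpins, and their log2 fold changes had a Pearson correlation of 0.65 and a Spearman correlation of 0.54 across hairpins (0.82 for the 19 with both arms at 100 CPM or more). Both arms were DE in 18 hairpins, 17 times in the same direction. The exception was miR-1298, in an intron of the serotonin receptor gene Htr2c (chrX:147064905-147065002, plus strand), whose arms are printed here because they moved apart.
miR-1298-5p: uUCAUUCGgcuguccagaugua
miR-1298-3p: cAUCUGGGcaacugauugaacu
miR-1298-5p fell from 1988, 1988, 1180.1 and 1828 CPM to 978, 614 and 807 CPM (log2 fold change -1.22) and miR-1298-3p rose from 257, 284, 308 and 337 to 501, 636 and 645 CPM (log2 fold change 0.94). The counts of the 3p arm were 12.9% to 26.1% of those of the 5p arm at P0 and 51.2% to 103.6% at P16. In 62 further hairpins 1 arm was DE.

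**Figure D5:**
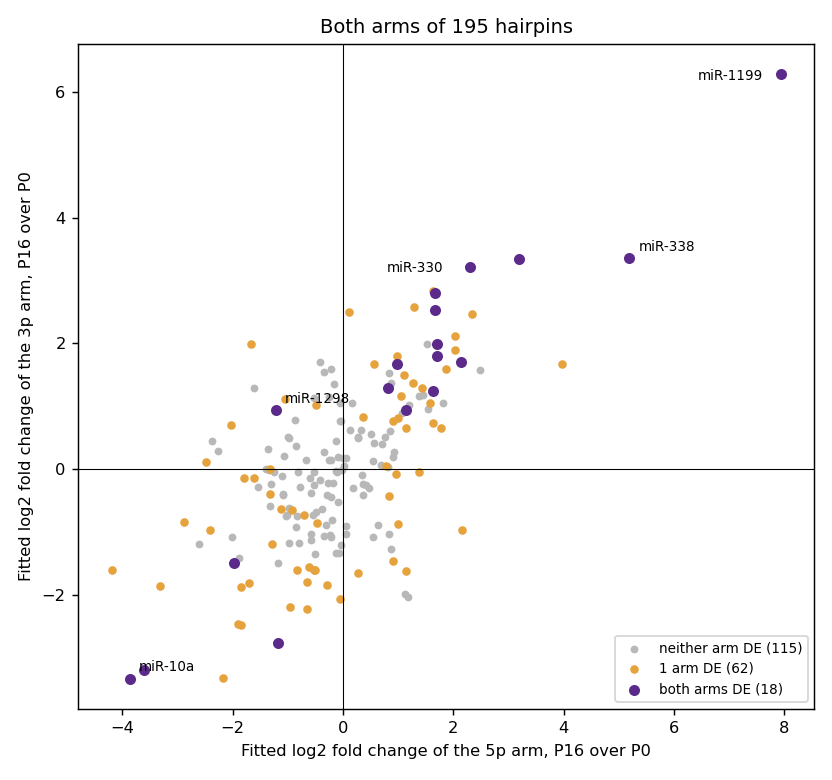
Fitted log2 fold change of the 3p arm (vertical axis) against that of the 5p arm (horizontal axis), P16 over P0, for the 195 hairpins with both arms tested. Both arms were DE in 18 hairpins (purple), 1 arm in 62 (orange) and neither in 115 (grey); miR-1298 is the purple point at the upper left.

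Whether a change after birth differed between the SOC and the cochlea, the other organ of the series, was tested as the difference of the 2 changes in 1 model of all 21 libraries. Of 481 miRNAs that met the filter on low levels in both organs, 84 differed with an FDR under 0.05 (17.5%), 49 with a higher change in the SOC (10.2%) and 35 with a lower one (7.28%). Without P0 replicate 4 or P16 replicate 1 of the SOC, 48 and 41 differed. Of the 16 miRNAs with the largest SOC changes among DE miRNAs of at least 100 CPM, 14 could be tested and 8 differed. They were picked for their change in the same SOC libraries, so that this share cannot be set against the 17.5%. miR-449a-5p had a log2 fold change of 2.70 in the cochlea (FDR 0.0326), a difference of -5.47 (standard error 1.07, FDR 7.89e-04). miR-330-3p had a cochlear log2 fold change of 0.40 (difference 2.77, FDR 3.32e-04) and miR-335-5p one of -0.80 (difference -2.35, FDR 0.0068). miR-34a-5p had a log2 fold change of 3.24 in the cochlea (FDR 2.54e-08), and the difference of 0.74 (standard error 0.50) did not pass the threshold (FDR 0.303). The arms of miR-338 rose in the cochlea as well, with 3.15 (miR-338-5p, FDR 9.88e-07) and 3.73 (miR-338-3p, FDR 8.09e-07). miR-3065-3p did too (2.53, FDR 2.64e-04). The difference passed for miR-338-5p (1.83, FDR 0.0426), a call lost without several single libraries. It did not pass for miR-338-3p (-0.17, FDR 0.875) or miR-3065-3p (0.98, FDR 0.322). The members of the miR-183 cluster had cochlear log2 fold changes of -0.21 (miR-183-5p), 0.74 (miR-96-5p) and 0.45 (miR-182-5p), and the differences of -1.53, -3.27 and -2.34 passed the threshold. Those of miR-183-5p (-1.31 without P0 replicate 4 of the SOC), of miR-96-5p (-2.43 without P16 replicate 1 of the SOC, -2.97 without P16 replicate 1 of the cochlea) and of miR-335-5p (-2.06 without P16 replicate 1 of the SOC) did not pass in these fits. The difference of miR-335-5p was -1.54 without P16 replicate 1 of the cochlea, and that of miR-449a-5p was -4.26 without P16 replicate 4 of the cochlea. The organs were prepared with different kits, and the cochlea libraries of these time points held 124400 to 207336 counts, so that changes of miRNAs with few cochlear counts are imprecise.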

How the data were processed

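Small RNA of the superior olivary complex (SOC) was isolated with the innuPREP miRNA kit, made into TruSeq Small RNA libraries and sequenced on a HiSeq 2500. Cochlea libraries were prepared with other kits. The deposited values are raw counts of reads per mature miRNA, made by the authors without normalization. The submitters' processing notes name Bowtie2 2.2.5, DESeq2 and mm10, whereas the study's methods describe Bowtie with a reference built from MirGeneDB. The table carries names in the style of miRBase, so the reference behind the counts is uncertain. How reads that fit several miRNAs or either strand were counted is not given in the sources used here. SOC libraries at P0 and P16 held 8309669 to 17741834 counts.

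miRNAs above 1 CPM in 2 or more replicates of P0 or of P16 were tested with edgeR 4.0.16 in R 4.3.3 (TMM factors, quasi-likelihood test, terms for library set and time, Benjamini-Hochberg adjustment). Standard errors are the log2 fold change over the square root of the test's F. The sets were defined from the counts, as libraries with under 1% on miR-191-5p (C), over 10% on miR-99b-5p (A), or neither (B). DE miRNAs had an FDR under 0.05 and a fold change above 1.5, and their time points did not overlap. The difference between organs came from 1 model of all 21 libraries. limma 3.58.1 and DESeq2 1.42.0 were alternatives. The fits were tested on simulated data. No 2 libraries of a group agreed within sampling noise. The p-values of the SOC fit measure the spread between pools that remains once the library set is accounted for. Sets B and C, on which the change rests, hold 1 P0 library each.

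Named miRNAs are the 8 largest increases and decreases among DE miRNAs with at least 100 CPM, the 5 most abundant, the most abundant and the most changed DE member of each list, and miRNAs the study's text turns on. Others were named after their values were seen. The members and lists were chosen with earlier results of these data known. RefSeq sequences matched 589 of the 670 miRNAs, and host genes are from GENCODE vM21.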

Additional observations from a re-analysis of the deposited data

Results flagged for a closer look

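With 60 groups tested, of which chance alone gives about 3, 7 named miRNAs had 1 P0 library far from the other 3 by Dixon's test at the 95% level. In 6 of these the library was P0 replicate 4, the only P0 library of set C, and the values there were 1153 CPM for miR-449a-5p (206 to 306 CPM in the others), 56131 CPM for miR-16-5p (8658 to 11188), 21192 CPM for miR-25-3p (3590 to 4687), 6419 CPM for miR-126a-3p (886 to 1504), 35.7 CPM for let-7b-5p (3.34 to 4.70) and 1.80 CPM for miR-181b-1-3p (0.167 to 0.300). The seventh was miR-429-3p, at 103 CPM in P0 replicate 2 against 13.9 to 23.5 CPM in the others. In the model of the 7 libraries, all 6 were higher in set C than in set B, by 1.98 to 2.31 on the log2 scale (edgeR FDR at most 0.0042). That model includes P0 replicate 4, for whose levels these 6 were picked, so that it gives no separate evidence.

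For 20 of the 50 named miRNAs that could be tested in both organs, the change from P0 to P16 in the SOC differed from that in the cochlea (edgeR's quasi-likelihood test of the difference, FDR under 0.05). Among all 481 tested in both organs, 17.5% differed. Part of the 50 were named for large changes in the same SOC libraries, so that these shares cannot be compared. The difference in log2 fold change, SOC minus cochlea, was positive for miR-212-3p (3.97), miR-330-3p (2.77), miR-351-5p (1.94), miR-130b-5p (1.93), miR-338-5p (1.83), miR-330-5p (1.70) and miR-127-3p (1.37). It was negative for miR-449a-5p (-5.47), miR-99a-5p (-4.89), miR-376c-3p (-4.33), miR-376b-3p (-3.54), miR-96-5p (-3.27), miR-1a-3p (-3.02), miR-30b-5p (-2.68), miR-335-5p (-2.35), miR-182-5p (-2.34), miR-126a-3p (-2.30), miR-21a-5p (-1.96), miR-183-5p (-1.53) and miR-125b-5p (-1.37). A difference is not by itself a change in the SOC. miR-351-5p, miR-1a-3p, miR-126a-3p and miR-21a-5p were not DE in the SOC (log2 fold changes -0.42, 0.69, -0.40 and -0.50). In the cochlea their log2 fold changes were -2.33, 3.81, 2.02 and 1.57. miR-330-3p, by contrast, had 3.22 in the SOC and 0.40 in the cochlea. These calls differ in how far they rest on single libraries and on the set. With 1 library left out at a time, 8 of the 20 kept their call (miR-212-3p, miR-330-3p, miR-351-5p, miR-449a-5p, miR-376c-3p, miR-30b-5p, miR-182-5p and miR-126a-3p), and miR-351-5p and miR-126a-3p lost it without the set (1.80 and -1.14), as did miR-330-5p, miR-335-5p, miR-376b-3p, miR-127-3p, miR-125b-5p and miR-21a-5p. Without SOC P16 replicate 1, 11 were lost, at 2.34 (miR-338-5p), 1.77 (miR-330-5p), -2.06 (miR-335-5p), 2.32 (miR-130b-5p), -3.35 (miR-376b-3p), 1.46 (miR-127-3p), -2.43 (miR-96-5p), -1.54 (miR-125b-5p), -3.79 (miR-99a-5p), -1.96 (miR-1a-3p) and -1.50 (miR-21a-5p). Without SOC P0 replicate 4, 7 were lost, at 1.28 (miR-338-5p), 1.63 (miR-330-5p), 1.53 (miR-130b-5p), -1.31 (miR-183-5p), 1.30 (miR-127-3p), -1.17 (miR-125b-5p) and -2.41 (miR-21a-5p). Other single libraries ended the calls of miR-338-5p (SOC P0 replicates 1 and 2, P16 replicate 3 and cochlea P0 replicates 1 and 3 and P16 replicate 2, 1.47 to 1.81, and DESeq2, 1.48), miR-99a-5p (SOC P0 replicate 1, cochlea P0 replicate 2 and P16 replicates 1 and 2, -4.93 to -4.45), miR-21a-5p (SOC P0 replicate 1 and P16 replicate 2, cochlea P0 replicate 3 and P16 replicate 1, -1.86 to -1.53), miR-127-3p (SOC P0 replicate 1, 1.15), miR-130b-5p (cochlea P0 replicate 3, 1.53), miR-376b-3p (cochlea P16 replicate 3, -2.55) and miR-96-5p (cochlea P16 replicate 1, -2.97).

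miR-130b-5p, which fell in the SOC (log2 fold change -1.90), had a log2 fold change of -3.82 in the cochlea. The organs differ in mouse substrain, kit and depth, and their part in these differences cannot be told apart from the organ.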

How the results depend on the processing

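The number of DE miRNAs rested most on the library set and on the criterion of overlap. Against 161 (96 higher and 65 lower), it was 66 (39 and 27) without the set, 297 (148 and 149, of 560) in set C alone, where P0 is a single library whose spread is assumed to be that of the P16 libraries, 323 (163 and 160) with no criterion on overlap, and 320 (162 and 158) with the same direction within each set in its place. Without the set and without the criterion, a combination chosen after seeing the data, it was 67 (40 and 27). With at least 10 counts in every library, 62 were higher and 50 lower. Leaving out 1 library gave 114 (69 and 45, without P0 replicate 1) to 181 (103 and 78, without P0 replicate 3), and 105 to 157 of the 161 remained. Of the 161, 144 remained with RLE factors, 132 with library totals, 146 with DESeq2 and 161 with limma, and none changed sign under any alternative. RLE factors, totals and DESeq2 moved the median log2 fold change of all miRNAs to -0.19, -0.28 and -0.19, and totals split the calls into 72 higher and 76 lower.

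Replicate numbers did not pair the samples, since the deviations of same-numbered libraries had correlations of 0.57, -0.55 and -0.65. With the replicate number as a block in place of the set, 66 miRNAs were DE (38 and 28). The difference between organs was called for 84 miRNAs, for 48 without the set, 134 with DESeq2 and 41 to 115 with 1 library left out.

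Of the 38 named DE miRNAs none changed direction. Without the set the calls of miR-330-3p, miR-449a-5p, miR-183-5p, miR-153-3p, miR-138-5p, let-7d-5p, let-7b-3p, miR-433-3p, miR-503-5p, miR-181b-1-3p, miR-26a-1-3p, miR-451a and miR-20a-5p were lost at an FDR of 0.0524 to 0.151. All kept their direction, and some log2 fold changes were larger than with the set (miR-183-5p -4.16, miR-138-5p 1.96, let-7d-5p 1.45). The cause was not tested. Log2 fold changes turned only in miRNAs that were not DE. For miR-181a-5p (0.14) they were -0.047 with RLE factors or DESeq2, -0.045 with totals without the set-defining miRNAs, -0.13 with totals, -0.0066 without set A, -0.33 in set C and -0.22 to 0.54 with 1 library left out. For miR-26a-5p (0.12) they were -0.061 with RLE factors or DESeq2, -0.056 with totals without the set-defining miRNAs, -0.15 with totals, -0.022 without set A, -0.12 in set C and -0.0080 to 0.21 with 1 library left out, and the block -0.44 (-0.23 in all 11 SOC libraries). For miR-410-3p set C gave 0.17 and leaving out 1 library -0.45 to 0.35. miR-16-5p (-0.33) turned to 0.50 without the set and to 1.43 and 1.26 with the block in 7 and 11 libraries, miR-126a-3p (-0.40) to 0.61, 1.55 and 1.39, and miR-1a-3p (0.69) to -0.051, -0.51 and -0.19. The block turned miR-25-3p to 0.21 and miR-125b-5p to 0.24 and 0.12. With 1 library left out, miR-1a-3p ranged from -0.21 to 1.70 and miR-429-3p from -0.50 to 1.60. The low depth of the cochlea libraries limits the comparison of organs.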

Other observations

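The values that follow were chosen after the data had been seen. The receptor gene Htr2c hosts further miRNAs beside miR-1298, and their arms did not share a direction. miR-448-5p rose from 5.75, 3.80, 4.84 and 18.7 CPM at P0 to 29.0, 86.0 and 66.8 CPM at P16 (log2 fold change 2.16, edgeR FDR 6.20e-05), whereas miR-448-3p was at 257, 212, 197 and 722 and 133, 314 and 410.3 CPM, with overlapping time points and a lower level at P16 within each set (-0.97). miR-1912-3p fell from 12.7, 17.4, 9.02 and 39.3 to 3.27, 4.03 and 7.42 CPM (-2.45), and miR-1264-3p, miR-1264-5p and miR-764-3p were not DE (-0.30, 0.17 and 1.54).

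Some miRNAs were close to absent at 1 time point, so that only a bound on the fold change can be given (3 counts per library as the floor). miR-1199-5p had at most 1 count in a P0 library and 37 to 142 at P16, at least 29.4-fold higher, and its other arm, miR-1199-3p, rose as well, from 0.184 ± 0.277 CPM (SD, n = 4) to 6.29 ± 3.05 (n = 3). miR-7080-3p had at most 2 counts in a P0 library and 46 to 59 at P16. miR-135b-3p was at least 13.5-fold lower at P16, and miR-302a-3p, of the embryonic stem cell cluster, at least 3.97-fold lower. miR-302d-3p, of the same cluster, fell from 7.35, 13.6, 7.85 and 4.39 CPM to 0.694, 0.336 and 0.476 CPM (-3.39).

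miR-375-3p, a miRNA of endocrine cells, was even at P0 and uneven at P16, with 209, 266, 353 and 208 CPM and 311, 1334 and 4091 CPM, and was not DE because P16 replicate 1 lay below P0 replicate 3. miR-151-5p rose from 1861, 2344, 2498 and 3757 CPM to 9825, 10656 and 10214 CPM with close replicates (1.86), while miR-151-3p, from the same hairpin, was at 4376, 6807, 9112 and 2132 and 20098, 4692 and 4866 CPM and overlapped.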
